A study of Homo sapiens with 8 samples.

Results

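The 10 genes described here encode the enzymes that make and break down polyamines and the regulators of ornithine decarboxylase. They were chosen by name as rows of the count table: ODC1, AMD1, SRM and SMS for synthesis, SAT1, SMOX and PAOX for acetylation and oxidation, and OAZ1, OAZ2 and AZIN1 for the antizyme system. All 10 were found among the 27140 genes of the table, and all 10 were among the 15289 genes with enough counts to be tested. Counts came from sequencing of messenger RNA in LNCaP, a human prostate adenocarcinoma line, transduced with lentivirus and kept under puromycin at 1 µg/ml. The mutant rescue carried a hairpin against METTL3, the enzyme that places N6-methyladenosine on messenger RNA, with a hairpin-resistant METTL3 that is catalytically dead. The wild-type rescue carried the same kind of hairpin with a resistant wild-type METTL3, the knockdown carried the METTL3 hairpin with a vector, and the control carried a control hairpin with a vector. Each of these 4 stable lines had 2 libraries, and the labels do not say whether these came from separate cultures, so p-values measure only the spread between these libraries, which may be technical. The labels name 1 line per METTL3 state, so a difference between lines and a difference between METTL3 states cannot be told apart. In bulk RNA, fewer cells of a kind and less RNA per cell cannot be told apart either.

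Polyamines are small positively charged molecules that bind RNA and DNA and are needed for growth. ODC1 decarboxylates ornithine to putrescine, AMD1 makes the aminopropyl donor from S-adenosylmethionine, and SRM and SMS use that donor to build spermidine and then spermine. SAT1 acetylates spermidine and spermine for export or for oxidation by PAOX, while SMOX oxidises spermine directly. The antizymes OAZ1 and OAZ2 bind ODC1 protein and send it to the proteasome, and AZIN1, a relative of ODC1 without its activity, binds the antizymes and so spares ODC1. The prostate is known for making and secreting large amounts of polyamines, so this pathway is unusually active in prostate epithelium.

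Most of these messages were abundant. On the RPKM scale, which is depth-scaled counts per kilobase of the deposited gene length, OAZ1 averaged 739 over the 8 libraries, SAT1 334, AMD1 283, SRM 106, OAZ2 95.1, ODC1 54.6, AZIN1 48.2 and SMS 46.0. These 8 genes lay above 89.9% to 99.7% of tested genes on that scale. The oxidases stood apart, with SMOX at 4.64 RPKM and PAOX at 4.28 RPKM, above 37.7% and 36.3% of tested genes. Their counts of 118 to 222 per library leave wider errors than the 1250 to 17713 counts of the other 8 genes.

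**Figure D1:**
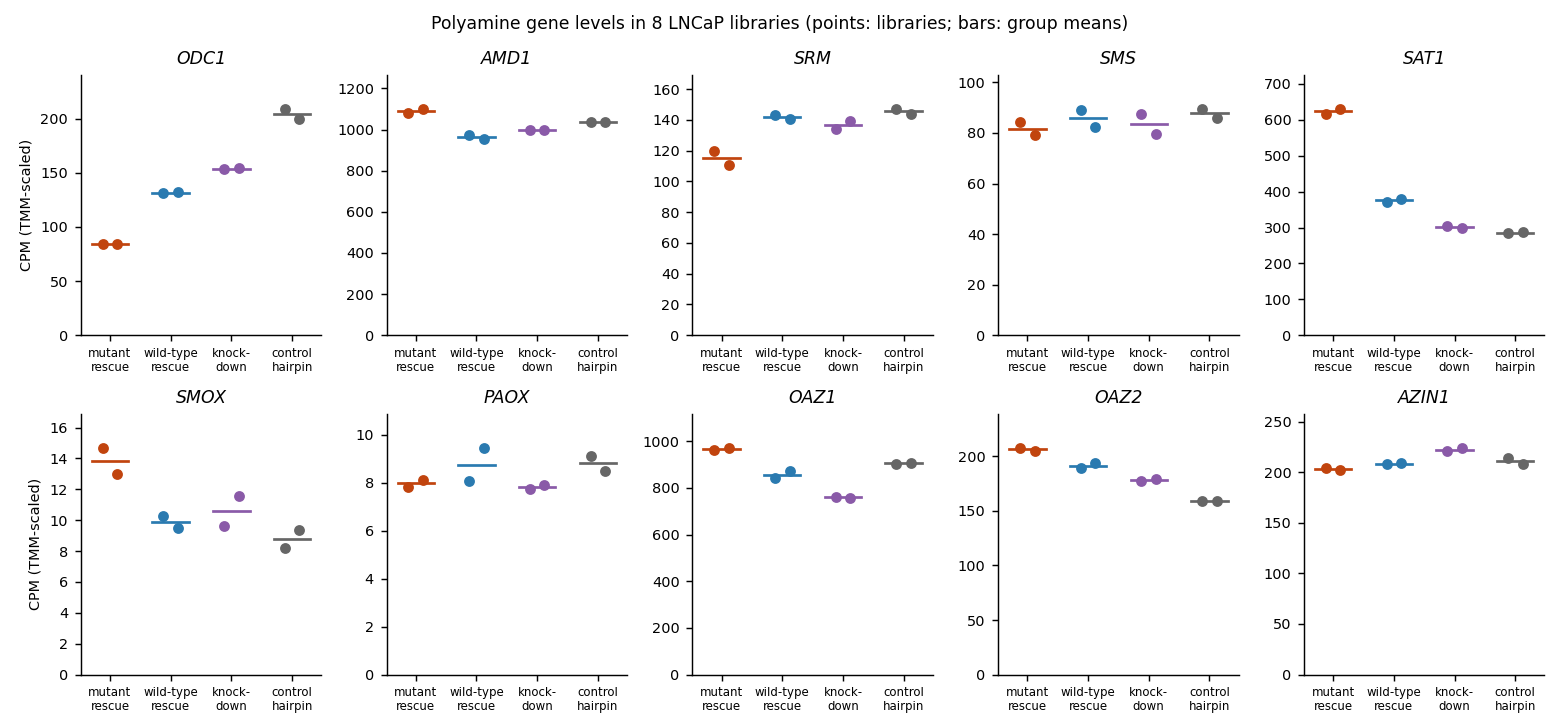
Level of each polyamine gene in CPM (counts scaled to library size, with TMM factors; vertical axes from 0) in the 8 libraries, with 1 point per library and a bar at the mean of each line. ODC1 is lowest and SAT1 highest in the mutant rescue, where ODC1 lies at 83.9 and 84.0 CPM and SAT1 at 617 and 631 CPM.

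ODC1 and SAT1, the entry step of synthesis and the acetylating step of turnover, had the largest changes among the 10 genes in the mutant rescue, in opposite directions. ODC1 stood at 84.0 and 83.9 CPM in the mutant rescue, 131 and 132 CPM in the wild-type rescue, 153 and 154 CPM in the knockdown, and 209 and 199.7 CPM in the control. No library of one line overlapped those of another. With 2 libraries a line such separation is weak evidence, and its share over all tested genes was not counted. Values without a call showed it too, as for PAOX (edgeR adjusted p = 0.270) and SMOX between the knockdown and the control. SRM and PAOX did so between the wild-type rescue and the knockdown, and SRM and SMOX between the wild-type rescue and the control. AZIN1 did so between the rescues, and PAOX and AZIN1 between the mutant rescue and the control. For ODC1 the lines ran from the mutant rescue at the bottom through the wild-type rescue and the knockdown to the control at the top. Each neighbouring pair in that order differed. ODC1 fell by 0.65 on the log2 scale in the mutant relative to the wild-type rescue (SE 0.04, edgeR adjusted p = 5.20e-36). It fell by 0.22 in the wild-type rescue against the knockdown (SE 0.03, edgeR adjusted p = 1.05e-08). It fell by 0.41 in the knockdown against the control (SE 0.03, edgeR adjusted p = 1.20e-25). The wild-type rescue thus lay further from the control than the knockdown did (log2 fold change -0.63, SE 0.03), and the mutant rescue lay furthest, at 0.410 times the control level (-1.28 on the log2 scale, SE 0.04, edgeR adjusted p = 1.02e-75). A share of 2.81% of tested genes had a larger change between the mutant rescue and the control. The share was 4.55% for the mutant rescue against the knockdown and 10.2% for the wild-type rescue against the control.

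SAT1 ran the other way, at 617 and 631 CPM in the mutant rescue, 371 and 381 CPM in the wild-type rescue, 303 and 299.9 CPM in the knockdown, and 284 and 287 CPM in the control. The lines did not overlap here either, although the knockdown and the control lay close together. SAT1 rose by 0.73 on the log2 scale in the mutant relative to the wild-type rescue (SE 0.02, edgeR adjusted p = 2.42e-70). It rose by 0.32 in the wild-type rescue against the knockdown (SE 0.02, edgeR adjusted p = 2.18e-25). The knockdown was higher than the control by 0.08 (SE 0.02, edgeR adjusted p = 0.00510), which did not hold without control hairpin replicate 1 (adjusted p = 0.0793). Against the knockdown the mutant rescue held 2.07 times as much SAT1, or 1.05 on the log2 scale (SE 0.02, edgeR adjusted p = 8.32e-91). Of tested genes 2.49% exceeded that change, and 4.21% exceeded the change of 1.13 in the mutant rescue against the control.

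Set side by side per length, the ratio of ODC1 to SAT1 RPKM was 0.0615 and 0.0600 in the mutant rescue, 0.160 and 0.157 in the wild-type rescue libraries, 0.228 and 0.233 in the knockdown, and 0.333 and 0.314 in the control. The ratio was lowest in both mutant libraries and highest in both control libraries, with no overlap between lines. That order follows from the opposite orders of ODC1 and SAT1 given above and is not a further result. Gene counts show message levels only, and neither enzyme activity nor polyamine content was measured.

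SRM, which makes spermidine, was lower in the mutant rescue than in every other line. It had 119.8 and 111 CPM in the mutant rescue, 143 and 141 CPM in the wild-type rescue, 134 and 139 CPM in the knockdown, and 147 and 144 CPM in the control. The mutant libraries lay below all 6 others. SRM fell by 0.30 on the log2 scale in the mutant relative to the wild-type rescue (SE 0.04, edgeR adjusted p = 4.95e-13) and by 0.25 against the knockdown (SE 0.04, edgeR adjusted p = 1.17e-09). The wild-type rescue was not called against the knockdown or the control, at 0.05 (95% interval -0.01 to 0.12) and -0.04 (-0.11 to 0.03) on the log2 scale. With the length trend removed the comparison with the control was called (-0.09, adjusted p = 0.0244). The knockdown was slightly lower than the control (-0.09 on the log2 scale, SE 0.03, edgeR adjusted p = 0.0168). That call ended without knockdown replicate 1 (adjusted p = 0.245), without control hairpin replicate 1 (0.143), with DESeq2 (0.187) and with the trend over gene length removed (0.210).

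AMD1, which supplies the aminopropyl donor, was the most counted synthesis gene and varied little. It had 1080.3 and 1102 CPM in the mutant rescue, 974 and 954 CPM in the wild-type rescue, 999 and 999 CPM in the knockdown, and 1035 and 1037 CPM in the control. AMD1 was higher in the mutant rescue than in the other lines, opposite to ODC1 and SRM, by 0.18 on the log2 scale against the wild-type rescue (SE 0.02, edgeR adjusted p = 7.66e-16). The wild-type rescue was lower than the control (-0.10 on the log2 scale, SE 0.02, edgeR adjusted p = 6.54e-07). The knockdown lay between them, at -0.05 against the control (SE 0.02, edgeR adjusted p = 0.0153). That call was lost whichever of the 4 libraries concerned was left out (adjusted p = 0.0571 to 0.0854), without a filter on low counts (0.0515), with DESeq2 (0.0948) or with the length trend removed (0.210). The wild-type rescue was at -0.05 against the knockdown (SE 0.02, edgeR adjusted p = 0.0280). That call ended without wild-type rescue replicate 2 (0.246), knockdown replicate 1 (0.104) or knockdown replicate 2 (0.0962).

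SMS, the spermine synthase, overlapped between lines in all comparisons but that of the mutant rescue with the control. It had 84.2 and 79.1 CPM in the mutant rescue, 89.2 and 82.4 CPM in the wild-type rescue, 87.3 and 79.4 CPM in the knockdown, and 89.6 and 85.9 CPM in the control. The 2 libraries of each line lay about as far apart as the lines did. In the mutant relative to the wild-type rescue its log2 fold change was -0.07 (95% interval -0.16 to 0.02, edgeR adjusted p = 0.214). Of its 6 comparisons, the call of the mutant rescue against the control (-0.11, SE 0.05, edgeR adjusted p = 0.0367) was the only one. It did not hold without mutant rescue replicate 2 (0.395), without control hairpin replicate 1 (0.267), without a filter on low counts (0.0678) or with DESeq2 (0.216). SMS was called in the knockdown against the control only without knockdown replicate 1 (-0.14, adjusted p = 0.0316).

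Because ODC1 and SRM were both lower and SAT1 higher in the mutant rescue, their promoter windows are shown. The windows are from RefSeq on GRCh38.p14 and run from 250 bases before to 50 after a transcription start, read 5′ to 3′ on the gene's strand. Capitals mark CACGTG, the E-box that MYC and related factors bind, which reads the same on both strands. The first is the more downstream of the annotated ODC1 starts, chr2:10447963-10448262 on the minus strand, the second SRM at chr1:11059969-11060268 on the minus strand, and the third SAT1 at chrX:23782923-23783222 on the plus strand.
ODC1: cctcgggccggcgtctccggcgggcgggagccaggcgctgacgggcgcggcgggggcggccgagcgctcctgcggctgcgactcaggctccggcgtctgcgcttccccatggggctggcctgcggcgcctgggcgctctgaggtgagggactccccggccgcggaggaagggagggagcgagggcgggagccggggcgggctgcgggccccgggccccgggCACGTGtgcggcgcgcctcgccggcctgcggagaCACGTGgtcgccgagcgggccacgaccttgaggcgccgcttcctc
SRM: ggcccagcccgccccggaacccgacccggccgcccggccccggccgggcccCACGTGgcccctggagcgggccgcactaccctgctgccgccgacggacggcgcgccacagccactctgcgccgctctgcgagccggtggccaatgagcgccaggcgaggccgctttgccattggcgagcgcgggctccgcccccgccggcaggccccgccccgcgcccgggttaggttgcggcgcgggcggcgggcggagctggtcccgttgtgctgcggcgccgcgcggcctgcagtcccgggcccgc
SAT1: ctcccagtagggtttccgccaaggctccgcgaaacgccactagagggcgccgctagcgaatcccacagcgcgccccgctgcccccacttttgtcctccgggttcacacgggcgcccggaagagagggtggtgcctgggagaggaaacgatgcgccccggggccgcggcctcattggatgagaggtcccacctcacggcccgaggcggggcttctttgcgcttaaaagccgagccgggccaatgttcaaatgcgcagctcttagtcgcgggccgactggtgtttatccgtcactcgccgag

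The ODC1 window held CACGTG 2 times, beginning at positions -29 and 6 from a start counted as 1, and the SRM window held it once, beginning at -199. The window of the other ODC1 start, which lies 315 bases upstream, held none, and neither did the SAT1 window. Of the 35116 windows of 300 bases in the table, 7.26% held CACGTG and 0.664% held it at least 2 times. Of the members, 7 had a window, and the windows of AMD1, SMS, OAZ1 and OAZ2 held no CACGTG. The ODC1, SRM and SAT1 windows shown were 80.7%, 82% and 66% G or C, and the other windows were not matched for this. These matches describe letters and do not show that a factor bound there. A link to the changes was not tested.

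The remaining turnover genes, the oxidases, were read from few counts. SMOX, which oxidises spermine, had 14.7 and 13.0 CPM in the mutant rescue, 10.2 and 9.50 CPM in the wild-type rescue, 9.65 and 11.6 CPM in the knockdown, and 8.21 and 9.39 CPM in the control. Both mutant libraries lay above the other 6, which overlapped in part. SMOX was higher in the mutant rescue, by 0.49 on the log2 scale against the wild-type rescue (SE 0.11, edgeR adjusted p = 1.32e-04) and by 0.65 against the control (SE 0.12, edgeR adjusted p = 3.89e-07). Against the knockdown the difference was 0.39 (SE 0.11, edgeR adjusted p = 0.00162), which was lost without mutant rescue replicate 1 (0.0681), without knockdown replicate 1 (0.119) and with DESeq2 (0.0555). In the knockdown against the control SMOX was not called at 0.26 (SE 0.12, edgeR adjusted p = 0.0647). It was called there without knockdown replicate 1 (0.0233), with the length trend removed (0.0278) and with only those groups in the fit (0.0471).

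PAOX, which oxidises the acetylated forms, was not called in any of the 6 comparisons. It had 7.81 and 8.12 CPM in the mutant rescue, 8.06 and 9.45 CPM in the wild-type rescue, 7.73 and 7.88 CPM in the knockdown, and 9.10 and 8.50 CPM in the control. The libraries of the mutant rescue overlapped those of the wild-type rescue. At this depth the 95% interval of its log2 fold change in the mutant relative to the wild-type rescue ran from -0.40 to 0.11 (estimate -0.14, edgeR adjusted p = 0.400).

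The antizymes were both higher in the mutant rescue than in every other line and in the wild-type rescue than in the knockdown, but had opposite signs in the knockdown and in the wild-type rescue against the control. OAZ1, the main antizyme, had 962 and 972 CPM in the mutant rescue, 842 and 871 CPM in the wild-type rescue, 760.2 and 758 CPM in the knockdown, and 904 and 909 CPM in the control. The knockdown held the lowest and the mutant rescue the highest values, without overlap between lines. OAZ1 fell by 0.26 on the log2 scale in the knockdown against the control (SE 0.02, edgeR adjusted p = 2.07e-25). It rose by 0.17 in the wild-type rescue against the knockdown (SE 0.02, edgeR adjusted p = 7.71e-14), but stayed below the control (-0.08 on the log2 scale, SE 0.02, edgeR adjusted p = 1.51e-04). The wild-type rescue thus lay between the knockdown and the control. The mutant rescue was higher still, by 0.17 over the wild-type rescue (SE 0.02, edgeR adjusted p = 1.19e-14).

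OAZ2 had 208 and 205 CPM in the mutant rescue, 189.6 and 194 CPM in the wild-type rescue, 177 and 179 CPM in the knockdown, and 159 and 159 CPM in the control. Its order was the reverse of that of ODC1, with the control lowest and no overlap between lines. OAZ2 rose by 0.16 on the log2 scale in the knockdown against the control (SE 0.03, edgeR adjusted p = 1.83e-06), where OAZ1 fell. The mutant rescue was higher than the wild-type rescue by 0.11 (SE 0.03, edgeR adjusted p = 0.00115). The wild-type rescue was higher than the knockdown by 0.11 (SE 0.03, edgeR adjusted p = 0.00332). That call ended without wild-type rescue replicate 2 (0.0822), without knockdown replicate 1 (0.0569), with DESeq2 (0.0650) and with the length trend removed (0.310).

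Both antizyme messages are read by ribosomes that shift frame at a stop codon, a step that polyamines promote and that gene counts do not see. The windows around that stop, from GENCODE version 29 transcripts on GRCh38, are shown with the stop TGA in capitals, because the genes share this control. The OAZ1 gene is on chromosome 19 and the OAZ2 gene on chromosome 15.
OAZ1: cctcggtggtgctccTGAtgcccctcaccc
OAZ2: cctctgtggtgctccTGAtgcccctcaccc
The windows matched at 29 of 30 bases, with the substitution G5T from OAZ1 to OAZ2, counted from 1 at the 5′ end. They were found by a fixed string around the stop, so those bases match by construction, and the reading frame was not checked. The window shown occurred in 7 of 11 OAZ1 transcripts and 5 of 9 OAZ2 transcripts.

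AZIN1, the antizyme inhibitor, had 204 and 202 CPM in the mutant rescue, 208 and 209 CPM in the wild-type rescue, 221 and 224 CPM in the knockdown, and 214 and 208 CPM in the control. The knockdown was highest, and the spread over all lines was small. AZIN1 was lower in the mutant rescue than in the knockdown (-0.13 on the log2 scale, SE 0.03, edgeR adjusted p = 2.27e-05). Relative to the wild-type rescue the mutant rescue was at -0.04 (95% interval -0.10 to 0.02, edgeR adjusted p = 0.267). In the knockdown against the control it was higher by 0.07 (SE 0.03, edgeR adjusted p = 0.0233), but not without knockdown replicate 2 (0.130), without control hairpin replicate 2 (0.239) or with DESeq2 (0.0873). The wild-type rescue lay at -0.09 against the knockdown (SE 0.03, edgeR adjusted p = 0.00703), which was lost without knockdown replicate 2 (0.0793), with DESeq2 (0.0522) and with the length trend removed (0.0702). The table also lists AZIN1-AS1, an antisense gene, with 13 to 23 counts per library against at least 3078 for AZIN1.

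**Figure D2:**
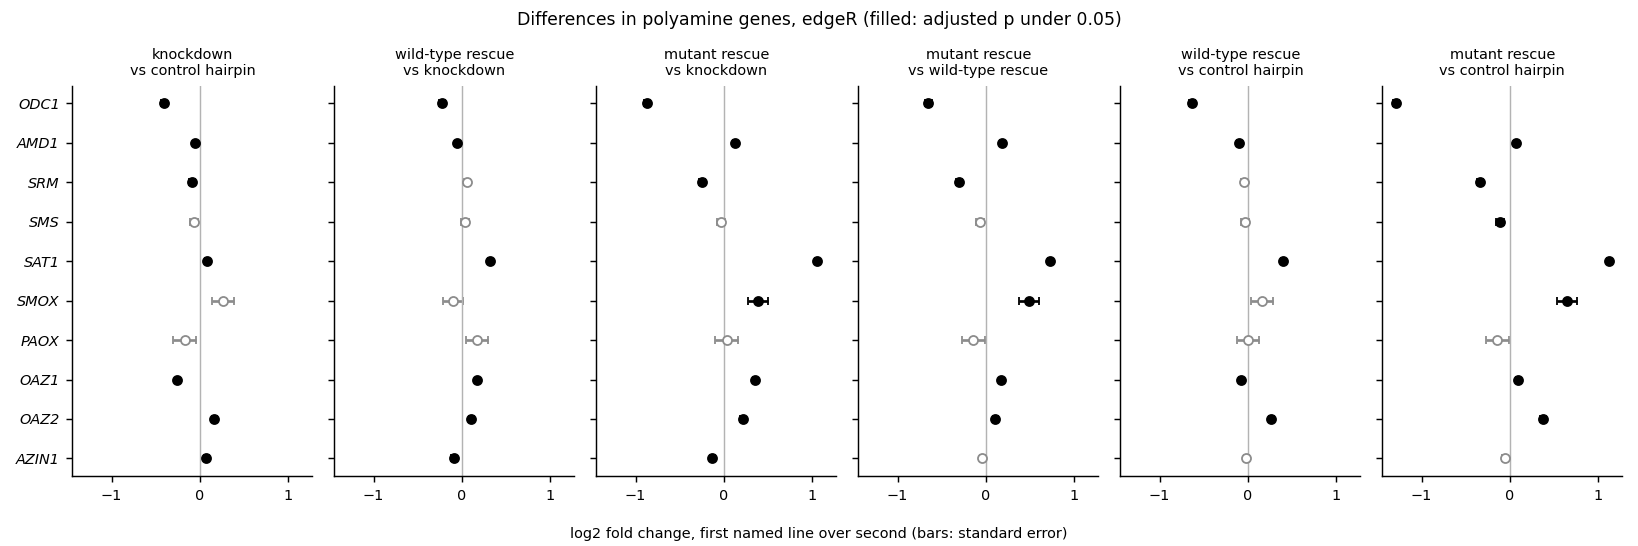
Log2 fold change (horizontal axes) of each polyamine gene in the 6 comparisons, first named line over second, with the standard error as a bar; filled points had an edgeR adjusted p under 0.05. ODC1 lies left of 0 in all 6 panels, reaching -1.28 in the mutant rescue against the control, and SAT1 lies right of 0 in all 6.

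Counted by comparison, the share of members called has to be read against the many genes that were called in all. In the mutant relative to the wild-type rescue, 5 members rose (AMD1, SAT1, SMOX, OAZ1 and OAZ2) and 2 fell (ODC1 and SRM), and 41.3% of all tested genes were called (21.0% higher, 20.3% lower). In the mutant rescue against the knockdown the same 5 rose and 3 fell (ODC1, SRM and AZIN1), against 51.7% of all genes called (25.9% higher, 25.8% lower). In the mutant rescue against the control the same 5 rose and 3 fell (ODC1, SRM and SMS), against 58.8% of all genes called (29.1% higher, 29.7% lower). The knockdown against the control had 3 higher (SAT1, OAZ2 and AZIN1) and 4 lower members (ODC1, AMD1, SRM and OAZ1), against 48.0% of all genes called (22.9% higher, 25.1% lower). With DESeq2 4 members were called there, while the genes called in all went from 7337 to 4980. The wild-type rescue against the knockdown had 3 higher (SAT1, OAZ1 and OAZ2) and 3 lower (ODC1, AMD1 and AZIN1), against 24.0% of all genes (10.8% higher, 13.2% lower). The wild-type rescue against the control had 2 higher (SAT1 and OAZ2) and 3 lower (ODC1, AMD1 and OAZ1), against 49.3% of all genes (23.8% higher, 25.5% lower). The comparisons share libraries, so a gene called in several of them is not counted independently each time.

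The members' differences, taken by their median, were close in size to those of all tested genes between the rescues and smaller on knockdown. In the mutant relative to the wild-type rescue the median absolute log2 fold change of the 10 members was 0.177, beside 0.168 over all tested genes, and in the knockdown against the control it was 0.128, beside 0.192. The changes of ODC1 and SAT1 between the rescues were exceeded by 5.70% and 4.25% of tested genes. In the knockdown against the control 21.4% of tested genes changed more than ODC1 and 77.2% more than SAT1.

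**Figure D3:**
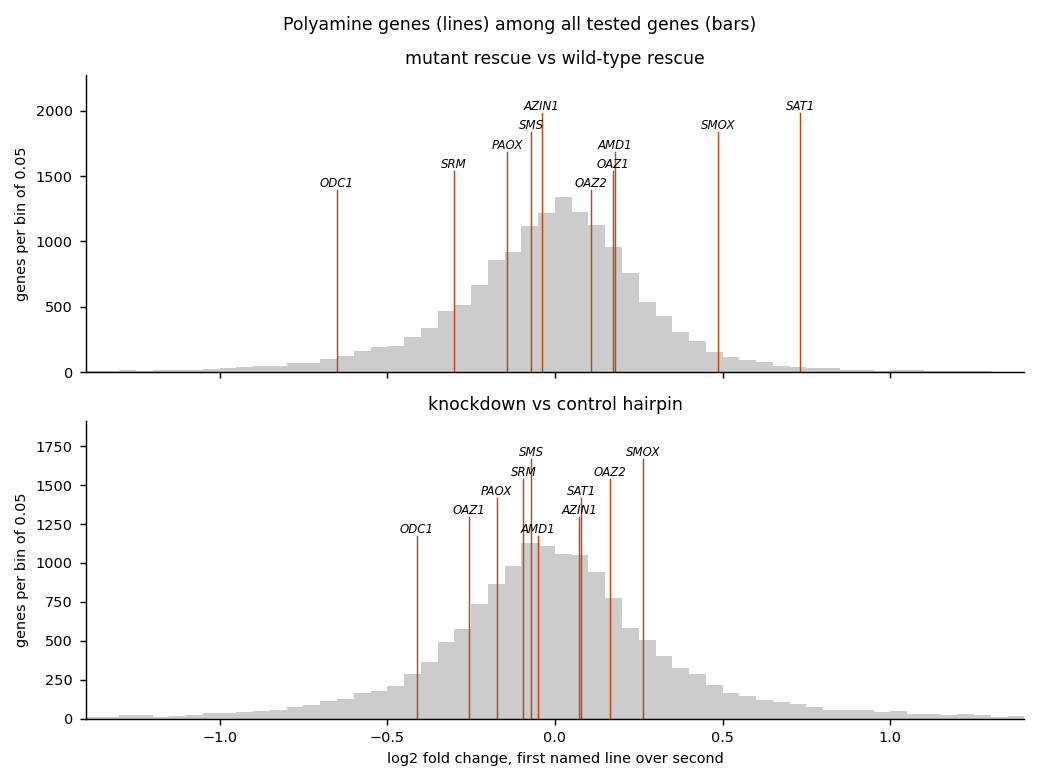
Number of tested genes (vertical axes) per bin of 0.05 in log2 fold change (horizontal axis, shown from -1.4 to 1.4) in the mutant relative to the wild-type rescue (top) and the knockdown against the control (bottom), with the polyamine genes as labelled lines. Between the rescues ODC1 at -0.65 and SAT1 at 0.73 lie in the tails, while AMD1, SMS, PAOX, OAZ1, OAZ2 and AZIN1 lie within 0.18 of 0.

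The genes around the pathway were read from a list of 35, of which 29 had enough counts (AGMAT, OTC, SLC25A2, SATL1, ATP13A4 and SLC47A1 did not). In the mutant relative to the wild-type rescue 4 rose, 9 fell and 16 were not called, where 41.3% of all tested genes were called, with a median log2 fold change of -0.06 beside 0.00 over all genes. In the knockdown against the control 7 rose, 11 fell and 11 were not called (median 0.01, beside -0.01), where 48.0% of all genes were called. In the mutant rescue against the knockdown 7 rose and 14 fell (median -0.11), where 51.7% of all genes were called. The wild-type rescue against the knockdown had 4 higher and 6 lower (median -0.01, beside 0.01), where 24.0% of all genes were called. Against the control, 8 rose and 13 fell in the mutant rescue (median -0.11), where 58.8% of all genes were called, and 10 rose and 12 fell in the wild-type rescue (median 0.00), where 49.3% were called. Without wild-type rescue replicate 1, 6 genes of the list were called between the wild-type rescue and the knockdown, as also with the length trend removed.

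Transport of polyamines and their precursors held some of the largest changes. SLC22A3, an organic cation carrier that can move polyamines, averaged 125 CPM in the mutant rescue, 186 CPM in the wild-type rescue, 209 CPM in the knockdown and 242 CPM in the control, the same order as ODC1. It fell by 0.57 on the log2 scale in the mutant relative to the wild-type rescue (SE 0.03, edgeR adjusted p = 1.25e-37). SLC7A1, which imports arginine, averaged 144 CPM in both rescues, 188 CPM in the knockdown and 239.5 CPM in the control. It fell by 0.38 in the wild-type rescue against the knockdown (SE 0.03, edgeR adjusted p = 8.47e-23). SLC7A2, a related arginine importer, rose by 0.57 in the knockdown against the control (SE 0.04, edgeR adjusted p = 1.72e-27). SLC3A2, the heavy chain of several amino acid carriers, averaged 133 CPM in the mutant rescue, 106 CPM in the wild-type rescue, 102 CPM in the knockdown and 160.1 CPM in the control. It fell by 0.65 in the knockdown against the control (SE 0.04, edgeR adjusted p = 2.75e-38) and rose by 0.34 between the rescues (SE 0.04, edgeR adjusted p = 1.05e-14).

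Upstream, MAT2A, which makes S-adenosylmethionine, averaged 98.8 CPM in the mutant rescue, 104 CPM in the wild-type rescue, 114 CPM in the knockdown and 174 CPM in the control. It fell by 0.61 in the knockdown against the control (SE 0.03, edgeR adjusted p = 3.46e-37), and its difference between the rescues was not called (-0.08, edgeR adjusted p = 0.0901). MTAP, which recovers the by-product of spermidine and spermine synthesis, fell by 0.41 in the knockdown against the control (SE 0.05, edgeR adjusted p = 2.46e-12). Between the rescues MTAP was at -0.22 (SE 0.06, edgeR adjusted p = 7.89e-04), and this call was lost on leaving out replicate 1 of the mutant rescue (0.0516) or of the wild-type rescue (0.0541). ARG2, which makes ornithine in mitochondria, fell by 0.34 in the mutant relative to the wild-type rescue (SE 0.04, edgeR adjusted p = 1.46e-14). ARG1, the liver form, had large estimates from only 4 to 20 counts per library. Its call in the mutant rescue against the knockdown (-1.50, SE 0.50, edgeR adjusted p = 0.00737) ended without mutant rescue replicate 1 (0.106), without knockdown replicate 1 (0.0948) and with DESeq2 (0.0965).

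Downstream, spermidine is used to form hypusine on the translation factor eIF5A. EIF5A fell by 0.33 (SE 0.03, edgeR adjusted p = 3.76e-18) and its paralog EIF5A2 by 0.39 (SE 0.10, edgeR adjusted p = 3.33e-04) in the mutant relative to the wild-type rescue. DHPS, which carries out the first step of hypusine formation, was higher by 0.14 there (edgeR adjusted p = 0.00583), which did not hold without mutant rescue replicate 1 (0.0956) or with DESeq2 (0.0590). SAT2, a paralog of SAT1, rose by 0.23 between the rescues (SE 0.05, edgeR adjusted p = 1.64e-05). AZIN2, a second antizyme inhibitor, was higher in the mutant rescue than in the control by 0.80 (SE 0.16, edgeR adjusted p = 6.83e-06), with mean levels of 7.45 CPM in the mutant rescue and 4.29 CPM in the control.

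**Figure D4:**
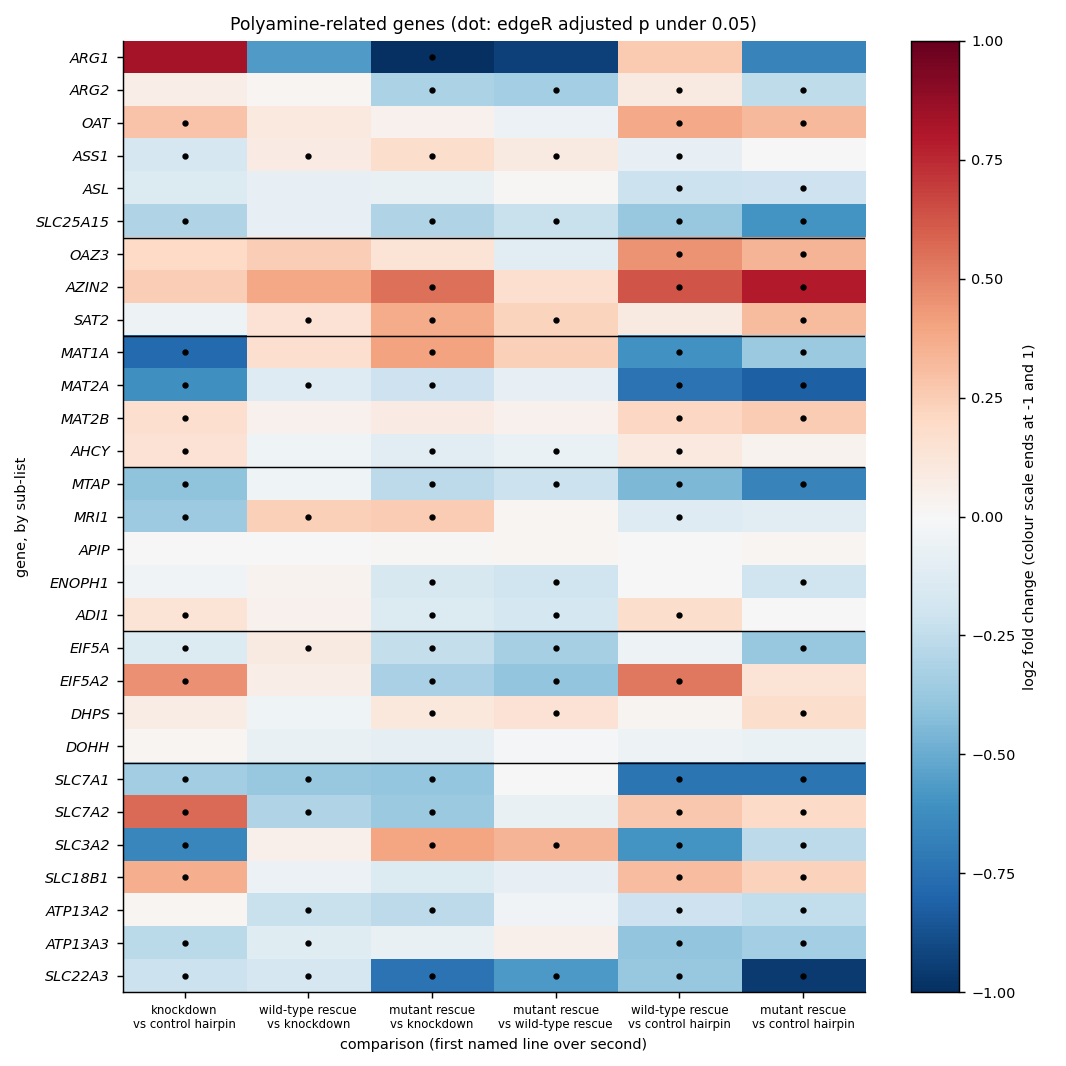
Log2 fold change (colour, first named line over second) of the 29 tested genes around the pathway in the 6 comparisons, with lines between sub-lists and a dot where the edgeR adjusted p was under 0.05. The colour scale ends at -1 and 1, which cuts the value of -1.50 for ARG1 in the mutant rescue against the knockdown; SLC22A3 reaches -0.95 and MAT2A -0.82 in the mutant rescue against the control.

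The profiles of ODC1 and SAT1 over the 8 libraries, which come from 4 lines and so hold few independent levels, are set beside their nearest genes. By Pearson r of log2 CPM, the genes most like ODC1 among those with a mean of at least 5 CPM were AIF1L, TMEM87B and ALDH1B1 (r = 0.998, 0.998 and 0.996). AIF1L spanned 0.42 on the log2 scale, against 1.32 for ODC1. The genes most like SAT1 were ZMYM3, ARFGAP1 and CC2D1A (r = 0.997, 0.997 and 0.995), and those most like SRM were PRPSAP2, WDR77 and SHCBP1 (r = 0.990, 0.988 and 0.987). DHPS was among the 3 genes most like SMOX (r = 0.982). Within the members, ODC1 ran opposite to OAZ2 (r = -0.966) and SAT1 (r = -0.964). These values describe libraries that share their lines and carry no test.

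METTL3 methylates adenosines in a short sequence context, of which GGACT is a common form, so its occurrence in the messages is given as a description. In the longest protein-coding GENCODE version 29 transcript, GGACT was found 0 times in ODC1, SMS and OAZ1, 1 time in SRM and SMOX, 2 times in SAT1, 3 times in AZIN1, and 4 times in AMD1, PAOX and OAZ2. Over 13252 tested genes with such a transcript, 92.4% held it at least once, at a median of 0.935 per kilobase. Per kilobase, PAOX held 2.15, OAZ2 2.07, SAT1 1.88, AMD1 1.16, SRM 0.790, AZIN1 0.635 and SMOX 0.431. PAOX, with the highest density, had only 118 to 171 counts per library, so its lack of calls says nothing about the motif. Whether the motif bears on any member's difference was not tested. Other forms of the context were not searched, and methylation was not measured.

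The libraries held 15200343 to 17893241 counts. METTL3 averaged 334 CPM in the mutant rescue, 317 CPM in the wild-type rescue, 28.8 CPM in the knockdown and 68.4 CPM in the control, and counts of the introduced and endogenous copies cannot be separated. The 9 luminal prostate and LNCaP markers, KLK3 among them, were all detected, with a summed level of 7592 to 7893 CPM in the METTL3 hairpin lines and 9434 to 9482 CPM in the control. Markers of other cells were low: the 3 basal genes summed to at most 4.01 CPM, and the 3 immune genes to at most 0.595 CPM with CD3E and PTPRC at or near 0. The 4 stromal genes summed to 104 and 111 CPM in the mutant rescue, 102 and 108 CPM in the wild-type rescue, 88.7 and 96.7 CPM in the knockdown, and 84.6 and 86.4 CPM in the control. Most of that was COL1A1, while COL1A2 was at 0 in all 8 libraries. VIM had 7.01 to 14.8 CPM, with the highest value in wild-type rescue replicate 1. Of the 7 genes high in other prostate lines, GSTP1, S100A6 and BASP1 were known from earlier results of these data. That choice may enlarge the contrast between libraries. The 7 genes summed to 28.4 CPM in wild-type rescue replicate 1 and to 6.85 to 8.80 CPM in the other 7 libraries. Without that library no member call changed in the comparisons of the wild-type rescue, though these then rested on 1 library of that line. In the wild-type rescue against the knockdown, SMS went from 0.04 to -0.02 on the log2 scale, without a call in the full fit. Fewer genes of the list around the pathway were called there, and the call of MTAP between the rescues was lost, as given above. The share of counts in RNR1 and RNR2 was 2.71% and 2.72% in the mutant rescue, 2.74% and 2.79% in the wild-type rescue libraries, 2.44% and 2.48% in the knockdown, and 3.22% and 3.27% in the control. The part of the luminal sum, the stromal sum and the RNR share in the results was not tested.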

How the data were processed

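Messenger RNA was counted per gene in 8 LNCaP libraries of 4 lines. Raw read counts for each gene and a gene length in bases were deposited by the authors, per the file headers. Tools listed in the submitters' processing notes are featureCounts, STAR 2.5.2b, CASAVA and DESeq2, with the build hg19. The strand setting and the treatment of reads with several matches are not given in the sources used here. Under symbols made of the gene's symbol, P and a number, RefSeq annotates 4 pseudogenes of AMD1, 3 of SRM, 1 of SMS and 1 of OAZ1. None of these is listed among the counted genes, and their reads may be shared with the members. Pseudogenes with other names were not counted.

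Testing used edgeR 4.0.16 (R 4.3.3): filterByExpr by group (minimum count 10, total 15), TMM, and a robust quasi-likelihood fit of 1 mean per group to all 8 libraries. The 6 pairwise comparisons were tested two-sided, with Benjamini-Hochberg adjustment over all 15289 genes and a call under 0.05. Standard errors were derived from each estimate and its F statistic (estimate size over root F), and 95% intervals are 1.96 of these either side. At 2 against 2 an exact permutation test cannot go below 0.333. Totals of 15200343 to 17893241 counts set the depth; chi-square per degree of freedom between the 2 libraries of a line was 1.21 to 1.36. RPKM divides CPM by the deposited length. The steps were tested on simulated counts with independent libraries, the same spread for all genes and few changed genes. This does not show how calls behave where the 2 libraries of a line may be technical or where many genes change.

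All 10 members are named, with METTL3, the pathway genes with the largest or called changes, and 3 genes most alike to a member; not all that qualify are printed. Members and lists were chosen with earlier results of these data known. Alternatives were DESeq2 1.42.0 size factors and Wald test, no filter, only the groups compared, a replicate block, each library left out, a minimum log2 fold change of 0.5, and a lowess length offset (span 0.3). Promoter and transcript sequences are of GRCh38, not of the build used for counting. The AZIN1 sequence is not reported here. One marker list is not reported here.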

Additional observations from a re-analysis of the deposited data

How the results depend on the processing

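Of 41 calls among the 60 member values, 32 held under all 14 alternatives other than a minimum fold, among them ODC1 in all 6 comparisons and SAT1 in all but the knockdown against the control. Some of these alternatives left out a library of a line outside the comparison, which enters it only through the shared fit. With DESeq2 size factors all 60 member values kept their sign and call. Signs reversed only for values that were not called. With the length trend removed, SRM (-0.0355) and SMS (-0.0269) reversed in the wild-type rescue against the knockdown, PAOX (-0.0164) in the mutant rescue against the knockdown, and PAOX (-0.0124) and AZIN1 (0.0040) in the wild-type rescue against the control. That last PAOX value was -2.28e-04 without a filter and -5.81e-04 with DESeq2. Leaving out 1 library at a time, SMS ran from -0.0275 to 0.11 and SMOX from -0.23 to 0.0305 in the wild-type rescue against the knockdown, SMS from -0.10 to 0.0383 in the mutant rescue against the knockdown, and SMS from -0.0888 to 0.0227 and PAOX from -0.13 to 0.10 in the wild-type rescue against the control. Members called then ran from 4 to 7 in the knockdown against the control, and pathway genes called from 6 to 10 in the wild-type rescue against the knockdown.

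With a minimum absolute log2 fold change of 0.5, members called were 2 between the rescues, 2 in the mutant rescue against the knockdown and 3 in it against the control, 0 in the wild-type rescue against the knockdown and 1 against the control, and 0 in the knockdown against the control. In that order the genes called were 928, 1861, 3014, 192, 1718 and 1739, against 6307, 7909, 8993, 3673, 7531 and 7337 without the minimum, and the pathway genes 1, 3, 6, 0, 6 and 4. DESeq2 called 4 members and 4980 genes in the knockdown against the control. It called 3984 genes between the rescues and 1908 in the wild-type rescue against the knockdown. With the length trend removed, 6 pathway genes were called in the wild-type rescue against the knockdown. Why these settings differ was not tested.

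The labels do not say that replicate numbers pair libraries, and correlations of same-numbered deviations lay between -0.0379 and 0.0397. With a replicate block no member call changed and PAOX in the wild-type rescue against the control was at -0.0020. SMOX and PAOX, with 118 to 222 counts, had the widest errors.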
